A study of Mus musculus with 2 samples.

Results

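The immunoglobulin lambda light-chain locus (Igl), the surrogate light-chain genes Igll1 and Vpreb1 and the related gene Vpreb3 were described in mouse pre-B cells. The description used the regions marked with H3K4me1, histone H3 monomethylated at lysine 4. Members were all called regions that overlapped, by 1 base or more, 1 of 3 windows of the mouse build mm9 named for these genes. The Igl window ran on chromosome 16 from 18950000 to 19350000, the Igll1 and Vpreb1 window on chromosome 16 from 16780000 to 16930000, and the Vpreb3 window on chromosome 10 from 75360000 to 75460000. They held 37, 4 and 7 regions, 48 of the 48130 regions in the deposited list (0.0997%).

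The data were 1 H3K4me1 chromatin immunoprecipitation library (ChIP-seq) and 1 input library made without antibody, from the same kind of cells. Both came from bone marrow pre-B cells of C57BL/6 mice of 6 to 14 weeks and of both sexes, lacking Rag1 and carrying an already rearranged IgM transgene. Both samples therefore share the Rag1 deletion, which prevents rearrangement of Igl, and the transgene, which supplies the heavy chain. The number of mice behind each sample is not stated in the labels, and no second genotype or cell stage was compared. Per its header, the region list was called from 50945360 H3K4me1 tags. Each group has a single library, so values stand without replicate error or p-values. The regions carry no signal value, and expression of marker genes was not measured, so the cell type was not checked.

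The H3K4me1 mark is typical of enhancers and of sequence flanking active promoters. In pre-B cells the heavy chain is not yet paired with a kappa or lambda light chain. It pairs instead with the surrogate light chain, made of VpreB (Vpreb1) and lambda5 (Igll1), and with the signalling chains of the receptor it forms the pre-B cell receptor, which drives a burst of proliferation before light-chain rearrangement. Vpreb3 encodes a related protein that binds newly made immunoglobulin chains inside B-lineage precursors. Igl itself is the lambda light-chain locus, which in mice is used by far fewer B cells than the kappa locus.

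All 4 genes were found in a RefSeq gene table of build GRCm38.p6, used here for names and order only because its positions belong to another build. In that table Igll1 and Vpreb1 are direct neighbours with 0 other entries between them, with Spag6l and Top3b as the nearest other protein-coding genes. Among protein-coding genes, Igl stands between Hira, a histone chaperone gene, and Olfr164, an olfactory receptor gene. The table lists 3 V segments (Iglv1, Iglv2, Iglv3), 3 J segments (Iglj1, Iglj2, Iglj3) and 3 C regions (Iglc1, Iglc2, Iglc3) inside Igl, besides 2 J pseudogenes and 1 C pseudogene. Recombination joins a V segment to a J segment in making a light-chain gene. Vpreb3 stands between Gm867 and Gm5134. No gene or segment was placed on an mm9 region, so a region is assigned below to a window and not to a gene. That each window holds the genes it is named for on mm9 was taken as given and was not checked.

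Pre-B cells use Igll1 and Vpreb1 in place of a light chain, and Vpreb3 encodes a related protein. The promoters of these 3 genes are therefore shown. Each is the 250 bases before the gene's start, from RefSeq on build GRCm38.p6, at chr16:16863986-16864235 (minus strand, Igll1), chr16:16869256-16869505 (minus strand, Vpreb1) and chr10:75948050-75948299 (plus strand, Vpreb3). These positions cannot be set beside the mm9 regions. Capitals mark matches on either strand to the E-box CANNTG, bound by E proteins such as E2A, to CCCNNGGG, the core of the site of the B-lineage factor EBF1, and to the octamer ATTTGCAT, which immunoglobulin V promoters carry.
Igll1: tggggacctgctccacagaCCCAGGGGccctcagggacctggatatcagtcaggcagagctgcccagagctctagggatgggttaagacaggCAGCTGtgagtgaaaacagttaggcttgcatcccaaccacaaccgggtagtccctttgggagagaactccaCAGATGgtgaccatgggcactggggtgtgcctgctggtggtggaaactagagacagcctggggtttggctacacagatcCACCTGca
Vpreb1: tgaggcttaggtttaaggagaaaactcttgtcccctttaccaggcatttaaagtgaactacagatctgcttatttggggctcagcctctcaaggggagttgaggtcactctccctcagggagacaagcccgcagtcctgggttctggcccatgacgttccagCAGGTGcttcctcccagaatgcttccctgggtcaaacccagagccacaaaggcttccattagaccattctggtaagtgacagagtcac
Vpreb3: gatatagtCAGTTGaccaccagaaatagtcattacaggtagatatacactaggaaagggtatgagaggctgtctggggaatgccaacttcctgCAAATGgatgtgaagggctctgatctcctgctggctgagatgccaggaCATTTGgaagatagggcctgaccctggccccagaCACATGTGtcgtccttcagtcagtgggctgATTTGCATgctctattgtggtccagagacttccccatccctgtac

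The Igll1 promoter held 3 E-boxes and 1 match to CCCNNGGG, the Vpreb1 promoter held 1 E-box, and the Vpreb3 promoter held 5 E-boxes, of which 2 overlap in CACATGTG, and 1 octamer. Of 32817 promoters of the same length in the table, 66.2% held an E-box, 11.8% a match to CCCNNGGG and 1.60% an octamer. The mean number of E-boxes in these promoters was 1.16. An E-box is thus common in promoters at large, and the octamer is the rarest of these matches. A match describes these letters and is not a bound site.

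The Igl window was among the most densely marked stretches of its size. It held 37 regions, 9.25 per 100 kb, which covered 113.9 kb or 28.5% of the window. Chromosome 16 as a whole had 1.82 regions per 100 kb between its first and last region, and 4.25% of that span was covered. Over the 19 autosomes and chromosome X, 66.6% of 6396 consecutive tiles of 400 kb held a region at all. Of those 6396 tiles, 0.813% held at least 37 regions and 0.969% had at least as many covered bases. The median tile held 3 regions over 5.28 kb. None of the 236 tiles of chromosome 16 reached 37, and the fullest held 34. The window was chosen for a named locus while tiles fall anywhere, so a tile can take in only part of a marked stretch.

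Marking within the Igl window was uneven. In successive bins of 50 kb, regions covered 13.7, 48.0, 55.0, 12.51, 41.0, 45.0, 12.6 and 0% of the bases. Marking was therefore heaviest between 50 and 150 kb and between 200 and 300 kb from the window's start, with a sparse bin of 6.26 kb covered in between. All regions lay in a stretch of 302.8 kb, from 18961666 to 19264426, of which 37.6% was covered. The last 85.6 kb of the window held no region.

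Broad regions made up much of the Igl marking. Of the 37 regions, 4 (10.8%, Clopper-Pearson 95% interval 3.03 to 25.4%) were at least 10000 bases long, beside 2.15% of the whole list. The interval covers counting error only and treats neighbouring regions as independent. The longest, of 10970 bases, ran from 19146410 to 19157379. Those of 10857 and 10832 bases lay close together, from 19020935 to 19031791 and from 19002614 to 19013445, and that of 10325 bases ran from 19238354 to 19248678. These 4 regions were nearly equal in length, between 10325 and 10970 bases, and together covered 43.0 kb, 37.7% of the marked bases. Only 0.407% of the 400 kb tiles held 4 or more regions of this length, a comparison chosen after the values were seen. The fifth longest, of 9195 bases, ran from 19060789 to 19069983.

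The other Igl regions were mostly short. Beside the broad ones, 4 regions were between 5000 and 10000 bases long, 20 were longer than the shortest length but under 5000 bases, and 9 (24.3%, interval 11.8 to 41.2%) had the shortest length the caller gives, 501 bases. In the whole list 14.3% of regions had that length, a value inside the interval. That interval treats neighbouring regions as independent and is not a test against the list. The 9 shortest regions covered 3.96% of the marked bases. Of them, 8 lay between 166.4 and 242.7 kb from the window's start, where the 100 kb from 150 to 250 kb held 13 regions in all, a stretch chosen after seeing the values. The median length in the Igl window was 1711 bases, beside 1497 in the whole list, and 21 of 37 regions were longer than that list median. With its shortest regions included, the Igl window thus combined a nearly ordinary median with long regions at the upper end.

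Neighbouring Igl regions lay 3.34 kb apart in the median, beside 8.87 kb over all neighbours in the list. Gaps of up to 2500 bases made up 14 of 36, or 38.9%, beside 26.0% of all gaps. The widest gap in the window was 26.4 kb, between the region from 18966598 to 18969484 (2887 bases) and that from 18995890 to 18996908 (1019 bases). Joined over gaps of up to 12500 bases, the 37 regions formed 5 groups. The last group was the largest, with 21 regions over 130.3 kb, of which 41.4% was covered. A group of 5 regions over 37.3 kb and a group of 7 regions over 43.3 kb were more densely covered, at 67.1% and 63.5%. The remaining groups held 2 regions each.

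**Figure D1:**
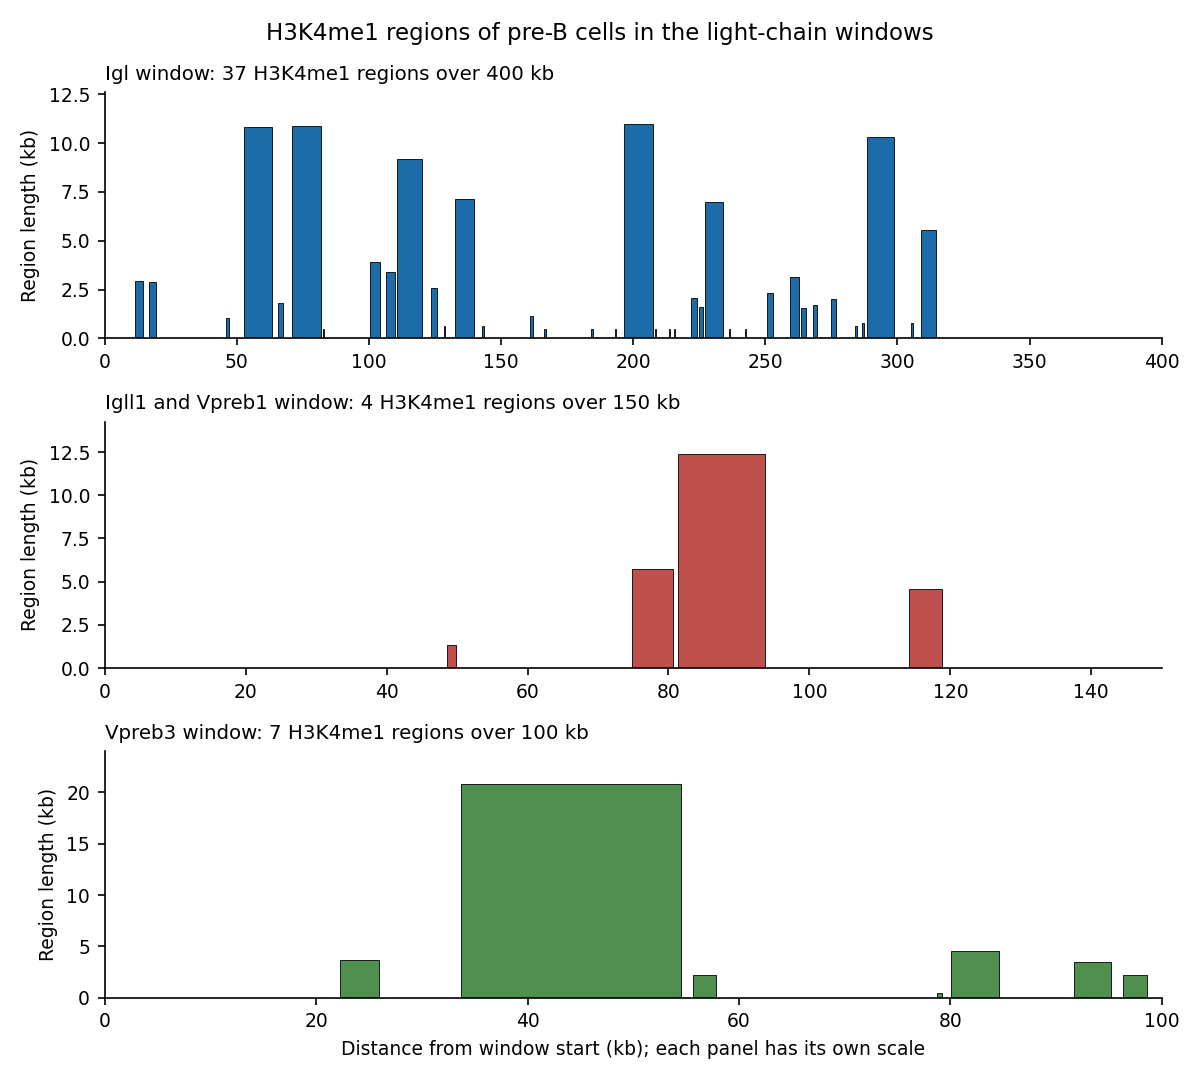
Positions and lengths of H3K4me1 regions in each window. The horizontal axis is the distance from the window's start in kb, the vertical axis the region length in kb, and each bar is 1 region drawn to its width. The Igl window shows 4 regions of 10325 to 10970 bases among many short ones, and the Vpreb3 window is dominated by 1 region of 20.8 kb.

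Igl marking ended abruptly on the side of higher coordinates. The first region, from 18961666 to 18964612 (2947 bases), began 11.7 kb inside the window, and the last region before the window, of 2341 bases, ended 69.8 kb outside it. The last region, from 19258870 to 19264426 (5557 bases), was followed by 467.7 kb without a region, and only 1.78% of the 48108 gaps between neighbours in the list were as long. Assembly gaps and unmappable sequence in that stretch were not analysed here. The window's coverage of 28.5% compares with 2 regions over 3.44 kb (0.859%) in the 400 kb after it and 12 regions over 18.0 kb (4.51%) in the 400 kb before it.

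The Igll1 and Vpreb1 window was not rich in regions, but 1 of them was broad. Its 4 regions covered 24.0 kb, or 16.02% of the window. A number of 4 or more was common, found in 30.7% of 17071 tiles of 150 kb, and 52.2% of these tiles held any region at all. By covered bases the window ranked higher, since 8.05% of the tiles had as much. The median tile held 1 region over 0.501 kb.

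The longest region here, of 12397 bases, ran from 16861348 to 16873744 and ranked 609th by length in the list. It alone made up 51.6% of the marked bases. A gap of 764 bases separated it from a region of 5750 bases, from 16854834 to 16860583. The pair spanned 18.9 kb, of which 96.0% was covered, and held 75.5% of the marked bases. The other 2 regions stood apart. One, of 4561 bases, ran from 16894198 to 16898758, 20.5 kb beyond the pair. The other, of 1322 bases, ran from 16828563 to 16829884, 24.9 kb before it. No region of the 4 had the shortest length (interval 0 to 60.2%). In the whole list 14.3% of regions had that length, a value inside this wide interval, so the count does not set the window apart. The interval treats neighbouring regions as independent and is not a test against the list. Of the 4 regions, 3 were longer than the list's upper quartile of 2694 bases.

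On the side of lower coordinates the Igll1 and Vpreb1 window bordered on unmarked sequence. The region before its first one ended 227.9 kb away, and 3.34% of gaps in the list were as long. The window's 4 regions and 24.0 kb compare with 0 regions in the 150 kb before it and with 12 regions over 14.3 kb (9.51%) in the 150 kb after it. The stretch after the window thus had more regions but fewer covered bases, and its longest region had 2690 bases. The window's edge mattered here: a region of 1265 bases, from 16930384 to 16931648, began 383 bases beyond it and was not counted.

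**Figure D2:**
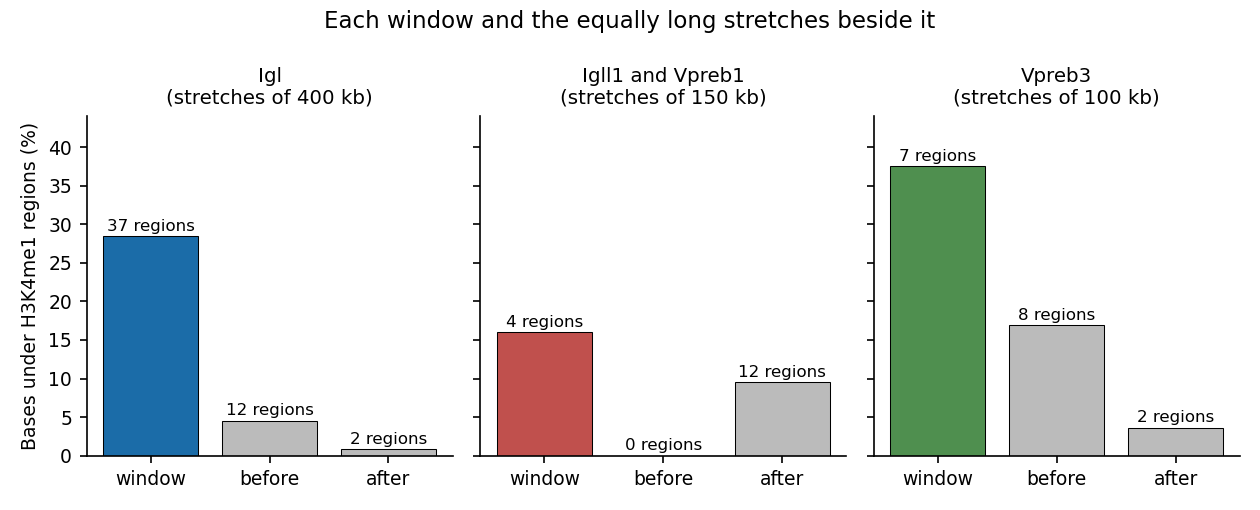
Share of bases under H3K4me1 regions, in percent, in each window and in the equally long stretches directly before and after it on the chromosome, with the number of regions above each bar. Each window was more covered than either neighbouring stretch, although the Igll1 and Vpreb1 window held 4 regions against 12 in the stretch after it, and the Vpreb3 window held 7 against 8 in the stretch before it.

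The Vpreb3 window had the highest coverage of the 3, and 1 region supplied most of it. Its 7 regions covered 37.5 kb, 37.5% of the window. Chromosome 10 had 4.87% of its span covered. Of 25613 tiles of 100 kb, 9.56% held 7 or more regions and 1.2% had at least as many covered bases, while 46.4% held 1 region or more. The median tile held 0 regions.

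The broad Vpreb3 region had 20835 bases, from 75393693 to 75414527, and ranked 103rd by length in the list, where 0.214% of regions were as long. It made up 55.6% of the window's marked bases. After 1095 bases it was followed by a region of 2235 bases, from 75415623 to 75417857, and 7.72 kb before it lay one of 3695 bases, from 75382275 to 75385969. These 3 regions formed 1 group over 35.6 kb, of which 75.2% was covered.

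A second group of 4 regions began 20.9 kb further on and spanned 19.9 kb, of which 54.1% was covered. Its members were a region of 501 bases from 75438739 to 75439239, one of 4535 bases from 75440054 to 75444588, one of 3463 bases from 75451713 to 75455175 and one of 2239 bases from 75456356 to 75458594. The first of these was the 1 region of 7 in the window with the shortest length (14.3%), beside 14.3% of the whole list. The median length in the Vpreb3 window was 3463 bases, and 6 of 7 regions were longer than the list median of 1497 bases. The last region ended 1.41 kb before the window's edge, and the nearest region beyond, of 501 bases, began 14986 bases after the edge. On the other side a region of 2937 bases ended 1.88 kb outside the window. The window's 37.5 kb of marked bases compare with 16.9 kb in 8 regions in the 100 kb before it and 3.65 kb in 2 regions in the 100 kb after it.

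**Figure D3:**
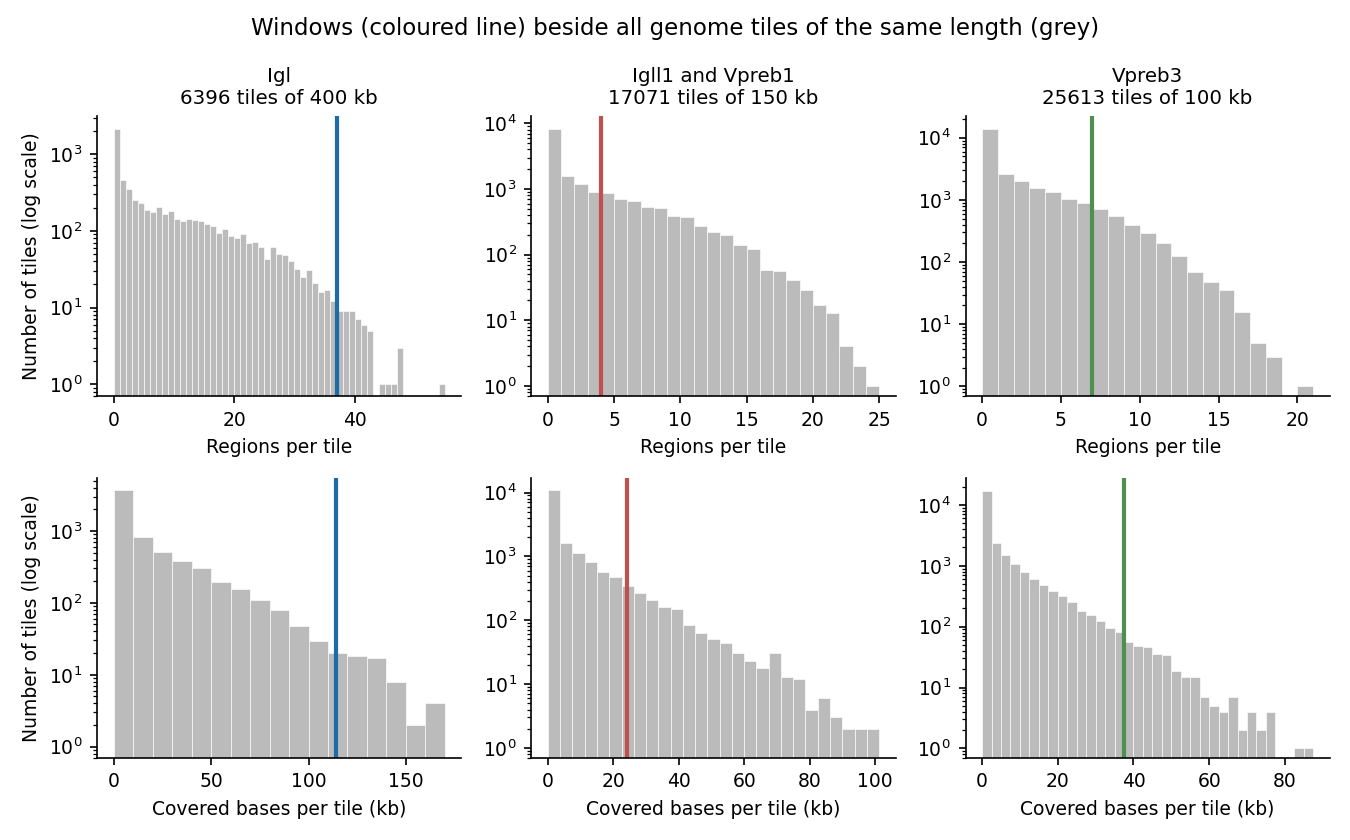
Number of regions (upper row) and covered bases in kb (lower row) in all consecutive genome tiles as long as each window, in grey on a logarithmic count axis, with the window's own value as a coloured line. Igl lies towards the right end of both distributions (0.813% and 0.969% of tiles at or above it), Igll1 and Vpreb1 well within the distribution by number (30.7%), and Vpreb3 further out by covered bases (1.2%) than by number (9.56%).

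The windows reached their coverage in different ways. Igl had many regions, and its longest one held 9.63% of the marked bases. In the Igll1 and Vpreb1 window and the Vpreb3 window the longest region held 51.6% and 55.6%. The windows differ in length and hold 37, 4 and 7 regions. The longest of few regions holds a larger share by arithmetic, which limits this contrast. Regions of 10000 bases or more numbered 4 of 37 in the Igl window, 1 of 4 in the Igll1 and Vpreb1 window and 1 of 7 in the Vpreb3 window, beside 2.15% of the list. At least 1 such region was found in 5.19% of the tiles of 150 kb and in 3.78% of those of 100 kb. Regions of at least 5000 bases numbered 8 in the Igl window (21.6%, Clopper-Pearson 95% interval 9.83 to 38.2%), beside 8.92% of the list. The same length was reached by 2 of 4 regions in the Igll1 and Vpreb1 window (interval 6.76 to 93.2%) and by 1 of 7 in the Vpreb3 window (interval 0.361 to 57.9%). With so few regions, these last intervals are wide and include the list's share. All these intervals treat neighbouring regions as independent, so they cover counting error only and are not a test against the list. Regions come from stitched peaks, so a length also depends on how the caller joined neighbouring peaks.

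**Figure D4:**
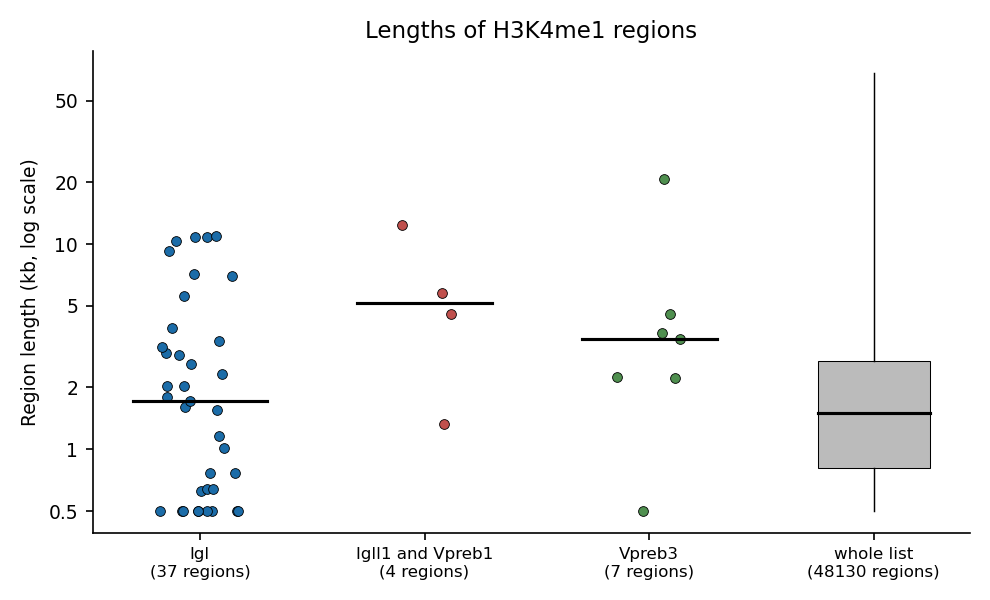
Lengths of H3K4me1 regions in kb on a logarithmic axis, with 1 point per region and a black line at the median for each window. On the right, the box gives the quartiles, the line the median and the whiskers the full range of the whole list. Medians were 1711 bases for Igl, 5156 for Igll1 and Vpreb1 and 3463 for Vpreb3, beside 1497 for the list.

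Of the surrogate light-chain genes, Vpreb1 has a near-copy that bears on mapping. For this comparison the table's full sequences of 300 bases were aligned without gaps, 250 before and 50 after each start, and the offset with the most identical bases was kept. Vpreb2, another VpreB gene on chromosome 16, matched Vpreb1 at 153 of 156 aligned bases (98.1%). The rest of the 300 bases fell outside the overlap at that offset and was not compared. Vpreb2 matched Igll1 at 34.7% and Vpreb3 at 31.25% of aligned bases. The alignments among Igll1, Vpreb1 and Vpreb3 matched at 29.5 to 34.7% of 268 to 295 aligned bases. How reads that match both copies were placed is not given in the sources used here, and the part of such reads in the regions of the Igll1 and Vpreb1 window was not tested. The same limit holds for the J and C segments of Igl, which are known to resemble each other and were not compared here.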

How the data were processed

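The submitters' processing notes name Bowtie 0.12.9 and HOMER 4.7 with mm9. Per the file headers, HOMER's findPeaks in histone style called peaks of 500 bases against input tags (at least 26 tags, 4-fold over input) and stitched them into regions. The deposited score column is 1 for all 48130 regions and was not used; tag counts per region were not analysed here. Regions were described by position, counted from 1, and length.

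Regions overlapping each window were counted and clipped to it. Background tiles ran consecutively from the first region of each autosome and chromosome X. Shares of regions carry exact 95% intervals, for counting error only. Members and lists were chosen with earlier results of these data known. Named in full were all regions in windows with up to 10, and otherwise the 5 longest, the first, the last and those beside the widest gap. The code that counts regions in tiles was checked against direct counting on simulated regions, which tests no result of these data. Planned results at gene starts and for other pre-B receptor genes were not run, since no mm9 annotation was used. Python 3.11.15, numpy 2.4.6 and pandas 2.3.3 were used.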

Additional observations from a re-analysis of the deposited data

How the results depend on the processing

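No paired analysis was possible because each group has 1 library. Of 45 values recomputed with other settings, 22 stayed within 1.5 times (counts), within the counting interval (shares) or exactly equal (median lengths). The other 23 moved. For coverage the interval takes each base as an independent trial, so it is narrow and small shifts count as moved. Some of the 22 could not move. No region crossed a window edge, so requiring its midpoint or whole length inside changed nothing. The Igll1 and Vpreb1 window had no region under 1322 bases, so dropping short regions changed nothing there. With regions of at least 1000 bases, Igl had 23 regions and 26.5% coverage, and Vpreb3 37.0% coverage. Joining regions under 2500 bases apart left 23 in Igl and 4 in Vpreb3. Widening windows by 50 kb on each side gave 14 regions in Vpreb3, and coverage of 22.8% (Igl), 10.5% (Igll1 and Vpreb1) and 25.1% (Vpreb3). Groups at a gap of up to 5 kb numbered 14 (Igl) and 4 (Vpreb3), and at up to 25 kb 2 (Igl), 1 (Igll1 and Vpreb1) and 1 (Vpreb3). Tiles with at least the window's number of regions were 0% (Igl) and 11.7% (Vpreb3) on the same chromosome. Among tiles with a region they were 1.22% (Igl), 58.8% (Igll1 and Vpreb1) and 20.6% (Vpreb3). By covered bases they were 8.05% (Igll1 and Vpreb1) and 1.2% (Vpreb3). Without the shortest regions the median length was 2458 bases in Igl and 3579 in Vpreb3. The median of the whole list without them is not given here, so these values have no counterpart. Each move follows from the altered setting itself: the list, window edge, gap, tile set or measure. Depth per region was not used, so which regions lie near the calling threshold is unknown.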
